A study of Mus musculus with 8 samples.

Results

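Glycolytic enzymes were followed on cDNA microarrays with 2 colours that compared HM-1 with R1, 2 lines of embryonic stem cells from the mouse. Of 10 listed enzymes, 6 had a probe named for them in the platform annotation. These were Hk2, Pfkl, Aldoa, Tpi1, Pgam1 and Pkm, with 10 probes among 20355 on the array. No probe carried the symbol Gpi1, Pgk1, Eno1 or Ldha, so these enzymes are not analysed here. The members were listed by gene name, with earlier results of these data known. Each array set HM-1 against R1. On 4 arrays both lines had been exposed to nocodazole, which takes microtubules apart and so arrests division at mitosis, and on 4 arrays both were untreated. The labels state no dose, duration, culture condition or passage, and leave unsaid whether each replicate was a culture of its own, so the p-values rest on a spread between arrays that may be technical. HM-1 carried the dye Cy5 on nocodazole replicates 1, 2 and 3 and on untreated replicates 1 and 2, and Cy3 on nocodazole replicate 4 and untreated replicates 3 and 4.

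Glycolysis turns glucose into pyruvate in the cytosol and yields ATP without oxygen. Mouse embryonic stem cells are known for a high rate of glycolysis, and its genes are textbook targets of the transcription factors Hif1a and Myc. The early steps spend ATP to phosphorylate and split the sugar, and the late steps recover it.

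All values are log2 ratios between the lines on 1 array, with the array's median set to 0 and with the sign of the deposited table, unless another reading is named. A value of 1 would be a 2-fold difference between the lines. The labels do not state which line is in the numerator, so no line is called higher. The value that stands for a denominator of 0 was positive on all 5 arrays with HM-1 in Cy5 and negative on all 3 with HM-1 in Cy3. That is the sign pattern of a table in which the Cy3 arrays had already been turned, if the code was set on 1 dye, and it does not test the dye labels. A second reading, with the 3 arrays of HM-1 in Cy3 turned in sign, is given beside the first. A ratio carries no level of expression, so the labelled cell type cannot be checked against marker levels, and probes cannot be ranked by abundance. Arrays held between 17928 and 19445 values, with medians as deposited between -0.19 and 0.12. Over features measured on all arrays, Pearson's r between arrays was -0.0085 to 0.23 for the 13 pairs with the same dye label and -0.17 to 0.02 for the 15 pairs with opposite labels. These points share probes and are not independent.

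No glycolytic enzyme passed the test of a difference between the lines, with or without nocodazole. The members' median log2 ratio was 0.04 ± 0.08 with nocodazole and -0.0054 ± 0.15 untreated (mean ± SD of the array medians over 6 members, n = 4 each). By limma, 0 of 6 members passed an adjusted p of 0.05 for the ratio with nocodazole, the ratio untreated or the change between them. The background was 0 of 14015 features, or 0%, in each of these 3 comparisons. At an unadjusted p under 0.05 the count of members was also 0, beside 2.91% of all features with nocodazole, 6.33% untreated and 3.33% for the change. The members' adjusted p lay between 0.959 and 1. No member had 1 sign on all nocodazole arrays (6.2% of features measured on all arrays were all positive and 4.15% all negative) or on all untreated arrays (6.7% and 7.37%). None had all nocodazole arrays above all untreated arrays (1.05%) or below them (1.03%).

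**Figure D1:**
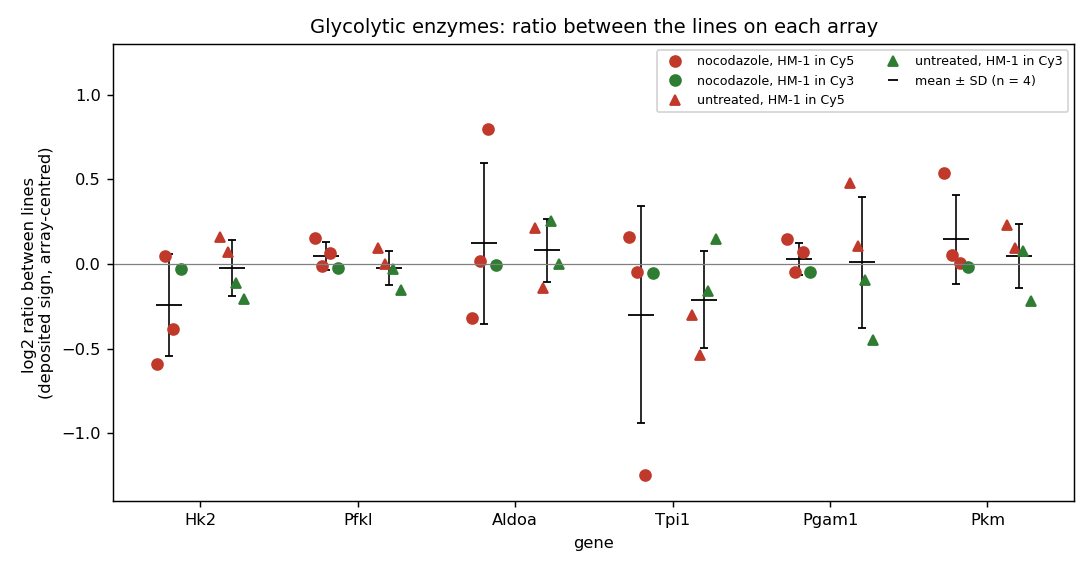
Log2 ratio between the lines for each of the 6 glycolytic enzymes (x axis) on each array, with nocodazole (circles) left of untreated (triangles), coloured by the dye of HM-1 and with the mean ± SD of 4 arrays. Most points lie within 0.5 of 0, and the 2 farthest are Tpi1 at -1.25 and Aldoa at 0.80, both on nocodazole replicate 3.

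The first step belongs to hexokinase 2 (Hk2), which traps glucose in the cell as glucose 6-phosphate and can sit on the outer mitochondrial membrane. Hk2 had 1 probe and read -0.59, 0.045, -0.38 and -0.028 on nocodazole replicates 1 to 4, against 0.16, 0.07, -0.11 and -0.21 on untreated replicates 1 to 4. The nocodazole arrays spread more widely and overlapped the untreated ones. The means were -0.24 ± 0.30 with nocodazole and -0.02 ± 0.17 untreated (SD, n = 4 each). The lowest value, on nocodazole replicate 1, equalled a ratio of small whole numbers, which can mark a dim spot. The fitted change of the ratio was -0.23 (SE 0.20, limma adjusted p = 0.997), with a 95% interval from -0.71 to 0.26. Without nocodazole replicate 1 this change was -0.12.

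Pfkl, the liver-type subunit of phosphofructokinase, catalyses the committed step of the pathway. Its 2 probes averaged to 0.15, -0.01, 0.064 and -0.024 on nocodazole replicates 1 to 4, against 0.092, 0.0015, -0.028 and -0.15 on untreated replicates 1 to 4. All 8 values lay close to 0, and the groups overlapped. The means were 0.046 ± 0.08 with nocodazole and -0.02 ± 0.10 untreated (SD, n = 4 each). Pfkl had the tightest interval of the members. Its 95% interval as a ratio between the lines ran from 0.875 to 1.17 with nocodazole and from 0.86 to 1.13 untreated. Its SD over the 8 arrays, 0.09, stood at percentile 1.46 among 11681 features, whose median SD was 0.36.

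Aldoa, the aldolase that splits fructose 1,6-bisphosphate, had 3 probes. Their mean was -0.32, 0.015, 0.80 and -0.0065 on nocodazole replicates 1 to 4, against 0.21, -0.14, 0.26 and 0.002 on untreated replicates 1 to 4. The wide nocodazole values came from 1 probe, 7609, which read -1.23 on replicate 1 and 2.22 on replicate 3. That probe had no value on nocodazole replicate 2, and on nocodazole replicate 4 and untreated replicate 4 it held the code that stands for a denominator of 0, which was set to missing. Probes 4656 and 10638 stayed between -0.013 and 0.18 on the nocodazole arrays and between -0.17 and 0.40 on the untreated ones. With these 2 probes alone, chosen with their values known, the fitted ratio of Aldoa was 0.01 with nocodazole and 0.14 untreated (limma adjusted p = 0.997 and 0.795). The 3 probes together gave 0.12 with nocodazole and 0.08 untreated. With the coded values kept the fit gave -2.23 with nocodazole and -1.32 untreated (limma adjusted p = 0.997 and 0.874), set by probe 7609 alone.

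Tpi1, triosephosphate isomerase, interconverts the 2 three-carbon products of aldolase. Its 2 probes averaged to 0.16, -0.05, -1.25 and -0.056 on nocodazole replicates 1 to 4, against -0.30, -0.54, -0.16 and 0.15 on untreated replicates 1 to 4. Nocodazole replicate 3 stood apart from the other nocodazole arrays, and the groups overlapped. The value there came mostly from probe 1338, at -2.21, while probe 15914 was at -0.29. On the untreated arrays these probes also disagreed. Probe 1338 read -0.81, -1.04, 0.009 and 0.78, and probe 15914 read 0.21, -0.034, -0.33 and -0.48. Among these 4 arrays the first probe was lower, and the second higher, where HM-1 was in Cy5. Over all 8 arrays probe 1338 was negative on all 5 with HM-1 in Cy5 and positive on all 3 in Cy3. No share over all features is given for this order. The dye term fitted to this probe alone did not pass limma (adjusted p = 0.552). Probe 15914 was negative on all 3 in Cy3 and on 2 of the 5 in Cy5. The gene's fitted ratio was -0.21 both with nocodazole (SE 0.25) and untreated (SE 0.23; limma adjusted p = 0.999 and 0.959). Without nocodazole replicate 3 the first became 0.05.

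**Figure D2:**
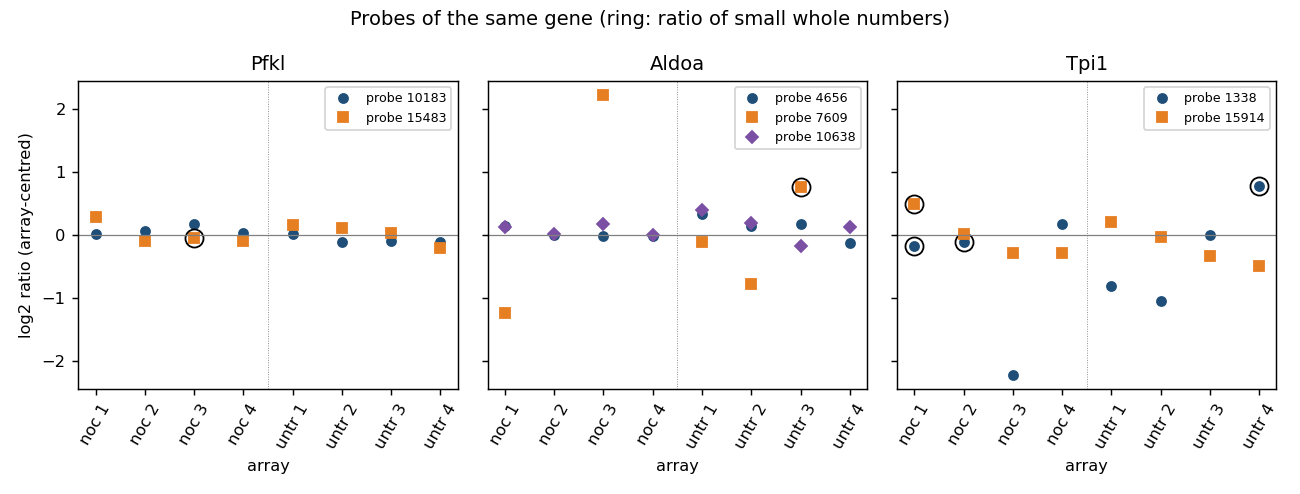
Log2 ratio of each probe of Pfkl, Aldoa and Tpi1 (y axis) on nocodazole (noc) and untreated (untr) arrays (x axis), with rings around values that match a ratio of small whole numbers. The probes of Pfkl stay within 0.26 of each other, while those of Aldoa and Tpi1 lie up to 2.23 and 1.93 apart.

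With all probes counted, those of 1 gene differed far less for Pfkl than for Aldoa and Tpi1. The range between probes on an array had a median of 0.14 for Pfkl, 0.72 for Aldoa and 0.84 for Tpi1. All probes of the gene had the same sign on 3 of 8 arrays for Pfkl, 1 of 8 for Aldoa and 2 of 8 for Tpi1. Of 77 measured probe values of the members, 7 matched a ratio of whole numbers no larger than 10, or 9.09%, against 14.6% of all values and 4.57% when the offset of the arrays was shifted. Of these 7, 3 were on probe 1338 of Tpi1. Their part in the disagreement was not tested.

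The late steps were measured through Pgam1 and Pkm. Pgam1, a phosphoglycerate mutase, moves the phosphate of 3-phosphoglycerate to the neighbouring carbon. It read 0.15, -0.047, 0.072 and -0.045 on nocodazole replicates 1 to 4, against 0.48, 0.11, -0.097 and -0.45 on untreated replicates 1 to 4. The untreated values spread around the nocodazole ones, with the arrays of HM-1 in Cy5 above 0 and those in Cy3 below it. The means were 0.03 ± 0.09 with nocodazole and 0.0095 ± 0.39 untreated (SD, n = 4 each). The fitted change was -0.07 (SE 0.18, limma adjusted p = 0.997).

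Pkm, the muscle-type pyruvate kinase gene, makes pyruvate and ATP, and its M2 splice form is known from embryonic and tumour cells. The files give 1 probe for the gene and do not separate its splice forms. It read 0.54, 0.055, 0.004 and -0.016 on nocodazole replicates 1 to 4, against 0.23, 0.094, 0.078 and -0.22 on untreated replicates 1 to 4. Nocodazole replicate 1 stood above the other nocodazole arrays, which lay near 0. The means were 0.14 ± 0.26 with nocodazole and 0.046 ± 0.19 untreated (SD, n = 4 each). Its 95% interval as a ratio between the lines was 0.86 to 1.31 with nocodazole and 0.846 to 1.26 untreated.

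Steps without a member on the array were touched by related probes, named after their values were seen. Gapdh, the dehydrogenase of the middle step and a common reference gene, had 3 probes and read 0.28, -0.15, -0.30 and -0.12 with nocodazole, against 0.23, 0.03, -0.04 and -0.17 untreated. Eno1b, a retrotransposed copy of the enolase gene Eno1, had 1 probe that read 0.28, -0.24, -0.39 and -0.097 with nocodazole, against 0.13, 0.01, -0.09 and -0.31 untreated. A cDNA probe for such a copy cannot be told from its parent gene by these files. Both genes read highest on nocodazole replicate 1 and lowest on nocodazole replicate 3 within their group, and neither gene passed limma (adjusted p = 0.999 with nocodazole for both, 1 untreated for Gapdh and 0.999 for Eno1b).

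Among themselves the members did not move as 1 block. Over the 8 arrays Pearson's r between pairs of members ran from -0.80, between Aldoa and Tpi1, to 0.89, between Pfkl and Pkm. Of the 15 pairs, 8 had a positive r. Pgam1 had an r of 0.84 with Pfkl and 0.68 with Pkm. These values are descriptions over arrays that share their dye labels and their RNA between genes. The 5 named genes whose ratios were most like the mean of the 6 members over the 8 arrays were Zc3h6 (r = 0.95), Cnot4 (0.95), Wdr38 (0.94), Snx17 (0.93) and Acap2 (0.93), out of 7482 named genes with a median r of 0.08. These 5 were picked as the highest r among all those genes over only 8 arrays, and their likeness was not tested. The members' mean carries the wide values of Aldoa and Tpi1.

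Several members were ordered along the dye label on the untreated arrays. There the label divides replicates 1 and 2 from replicates 3 and 4, so dye and replicate number cannot be told apart. Hk2, Pfkl and Pgam1 were positive on both arrays of HM-1 in Cy5 and negative on both in Cy3, a pattern held by 11.2% of the 11681 features measured on all arrays. With Pkm, 4 of 6 members had both Cy5 arrays above both Cy3 arrays, against 26.3% of those features. Over all 8 arrays only Pfkl had every Cy5 array above every Cy3 array, 1 of 6 members beside a background of 6.95%. Neither of its probes did so alone. Probe 10183 read -0.11 on untreated replicate 2 (Cy5) and 0.038 on nocodazole replicate 4 (Cy3). Probe 15483 read -0.086 on nocodazole replicate 2 (Cy5) and 0.032 on untreated replicate 3 (Cy3). The median over the members was 0.08 ± 0.08 on the arrays with HM-1 in Cy5 (SD, n = 5) and -0.09 ± 0.08 on those in Cy3 (SD, n = 3). The median over all features measured on all arrays lay between 0 and 0.023 in Cy5 and between -0.0165 and -0.0135 in Cy3. The fitted dye term ran from -0.38 for Tpi1 (SE 0.35, limma adjusted p = 0.769) to 0.37 for Pgam1 (SE 0.18, adjusted p = 0.588), and 0 of 6 members reached an unadjusted p under 0.05, against 9.16% of all features.

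With the Cy3 arrays turned, the untreated means became 0.14 ± 0.06 for Hk2, 0.07 ± 0.07 for Pfkl, 0.28 ± 0.21 for Pgam1 and 0.12 ± 0.14 for Pkm (SD, n = 4 each). Hk2, Pfkl and Pgam1 were then positive on 4 of 4 untreated arrays. This restates their order by dye label, held by 11.2% of features measured on all arrays. Pkm was positive on 4 of 4 nocodazole arrays in this reading, for which no share over all features is given. As deposited, in order of replicate, Pkm read 0.535, 0.055, 0.004 and -0.016 there, and only the last, in Cy3, was turned. All but the first lay near 0, so no weight is put on this count. Untreated, Aldoa and Tpi1 stood at -0.05 ± 0.20 and -0.21 ± 0.29 in this reading (SD, n = 4 each). Again 0 of 6 members passed limma, with a smallest adjusted p of 0.433, for Pgam1 untreated (0.28, SE 0.11). Pgam1 was also the 1 member at an unadjusted p under 0.05 in this reading, beside 10.5% of all features. With nocodazole no member reached an unadjusted p under 0.05 in this reading, beside 5.13% of all features, and for the change the background was 4.94% and the members' count 0.

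**Figure D3:**
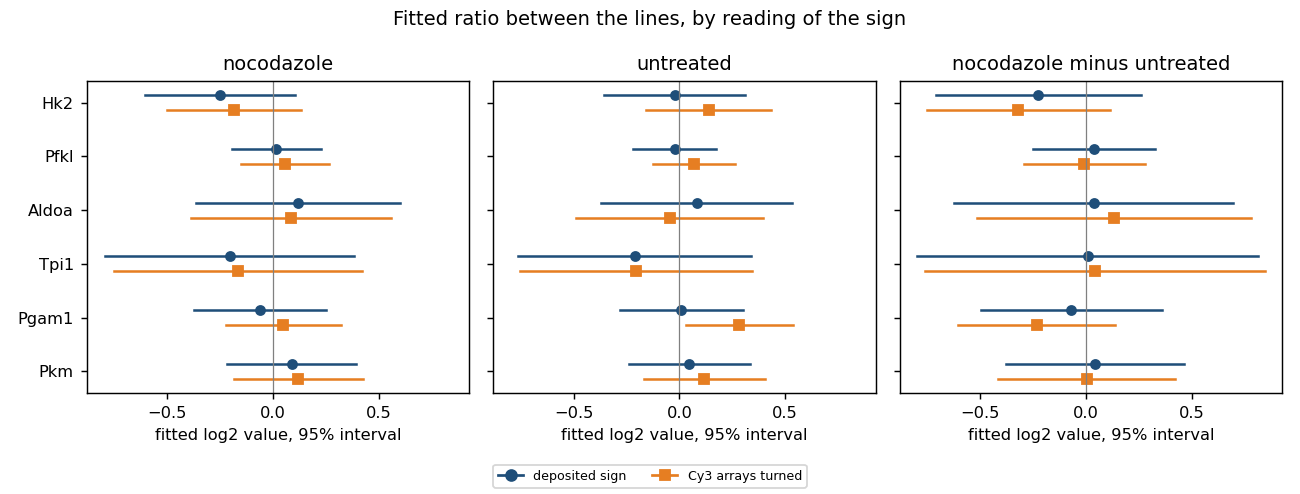
Fitted log2 value and 95% interval for each member with nocodazole, untreated and for the change (nocodazole minus untreated), with the deposited sign (circles) and with the Cy3 arrays turned (squares). The interval of Pgam1 untreated with the Cy3 arrays turned, 0.03 to 0.54, is the only one drawn that leaves out 0.

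The intervals bear on the size of a difference only if the arrays of a group are independent cultures, which the labels leave unsaid. As a ratio between the lines, the 95% intervals of Hk2, Pfkl, Pgam1 and Pkm lay between 0.658 and 1.31 with nocodazole and between 0.781 and 1.26 untreated, in the deposited reading. Those of Aldoa and Tpi1 were wider, from 0.576 to 1.52 with nocodazole and from 0.589 to 1.45 untreated. For the change of the ratio between conditions the widest interval was that of Tpi1, from 0.574 to 1.76, and the narrowest that of Pfkl, from 0.841 to 1.25. The intervals depend on the reading of the sign. In log2, that of Pgam1 untreated was -0.28 to 0.30 as deposited and 0.03 to 0.54 with the Cy3 arrays turned. Treated and untreated cells of 1 line never shared an array, so these values bear on the difference between the lines and give no effect of nocodazole within a line.

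Genes around the pathway gave the same count of passing tests. Of 109 genes in 11 lists of isoforms, transporters, neighbouring pathways and regulators, 75 were tested, and 0 passed limma in either direction in any comparison. At an unadjusted p under 0.05 there were 2 with nocodazole (2.67%, against 2.91% of all features), 4 untreated (5.33%, against 6.33%) and 1 for the change (1.33%, against 3.33%). The dye term had 12, or 16%, against 9.16% of all features, 5 positive and 7 negative.

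Among 14 other glycolytic isoforms tested, 9 had a positive fitted ratio with nocodazole (background 48.9%) and 10 untreated (background 49.9%), with median fitted ratios of 0.05 with nocodazole and 0.06 untreated, and 0 past the threshold. The more widely expressed hexokinase Hk1 stood at 0.02 ± 0.13 with nocodazole and -0.02 ± 0.13 untreated, and the platelet-type phosphofructokinase Pfkp at 0.0072 ± 0.10 with nocodazole and 0.11 ± 0.11 untreated (SD, n = 4 each). Ldhb, the heart-type lactate dehydrogenase subunit, was at 0.11 ± 0.34 with nocodazole and 0.29 ± 0.21 untreated, where it was positive on 4 of 4 arrays (SD, n = 4 each; limma adjusted p = 0.999 and 0.83). Eno3, the muscle enolase, had the widest spread of those measured on all arrays, at 2.08 ± 2.72 with nocodazole and 0.88 ± 1.26 untreated (SD, n = 4 each). In the citrate cycle, 7 of 13 tested genes were positive with nocodazole and 6 untreated. Of 11 tested genes of the hypoxia response outside glycolysis, 3 were positive with nocodazole and 4 untreated. Pyruvate dehydrogenase and its kinases had 2 of 7 positive with nocodazole and 3 of 7 untreated.

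The smallest p among these genes for the ratios and their change belonged to Slc16a3, the monocarboxylate transporter that exports lactate from glycolytic cells. It read -0.29, 0.12, -0.15 and 0.81 on nocodazole replicates 1 to 4, against 0.68, 1.19, 0.32 and 1.11 on untreated replicates 1 to 4. It was positive on all untreated arrays, and 1 nocodazole array lay within their range. The means were 0.12 ± 0.49 with nocodazole and 0.82 ± 0.40 untreated (SD, n = 4 each). The untreated ratio had an unadjusted p of 0.00763 and an adjusted p of 0.711 in limma, and the change was -0.63 (SE 0.32, adjusted p = 0.997). With the Cy3 arrays turned the untreated mean was 0.11 ± 1.03 (SD, n = 4).

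The genes named for the ratio with nocodazole were Phgdh, the first enzyme of serine synthesis from a glycolytic intermediate (0.32 ± 0.47), Mxd4, a partner of Max (0.03 ± 0.51), and Gpd2, the mitochondrial glycerol phosphate dehydrogenase (0.28 ± 0.25; SD, n = 4 each). Untreated, Fbp2, a fructose bisphosphatase of gluconeogenesis, was at 0.97 ± 1.29, and the haem oxygenase Hmox1 at 1.07 ± 1.32 (SD, n = 4 each). For the change, Mlxip, a glucose-responsive factor that pairs with Mlx, stood at 0.20 ± 0.40 with nocodazole and -0.56 ± 0.48 untreated (SD, n = 4 each). These genes were ranked by the fit with the dye term and not by these means. With nocodazole the fitted ratio was 0.46 for Phgdh, 0.29 for Mxd4 and 0.29 for Gpd2. Mxd4 was negative on all 5 arrays of HM-1 in Cy5 and positive on all 3 in Cy3, an order for which no share over all features is given. Among the nocodazole arrays Mxd4 read 0.79 on replicate 4, in Cy3, and -0.27 to -0.16 on those in Cy5. None of these 6 passed limma (adjusted p = 0.755 to 0.999). With the Cy3 arrays turned, the signs of the untreated means of Fbp2 and Hmox1 and of the nocodazole means of Phgdh and Mxd4 changed.

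**Figure D4:**
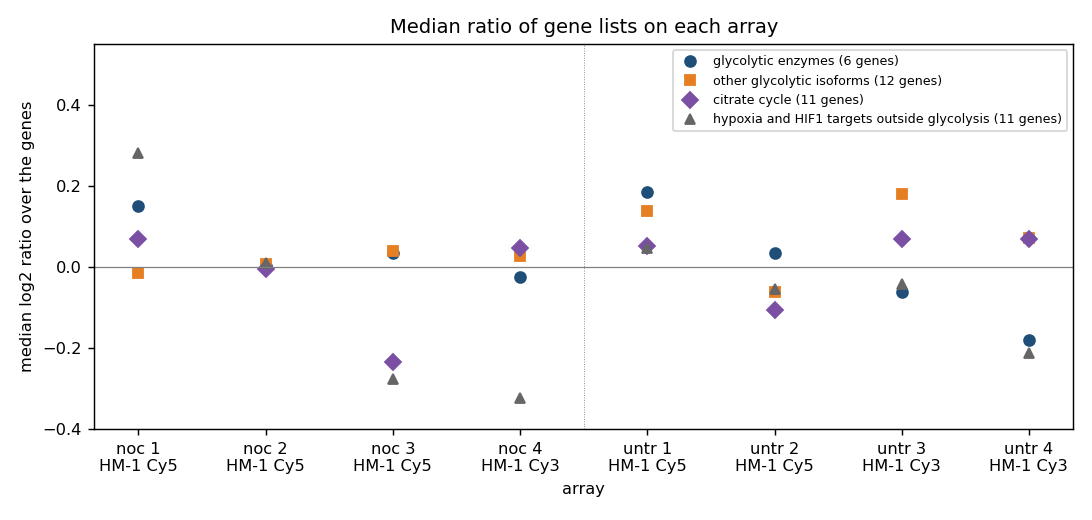
Median log2 ratio (y axis) of the 6 glycolytic enzymes and of 3 other gene lists on each nocodazole (noc) and untreated (untr) array (x axis), with the dye of HM-1 below each array. The glycolytic median runs between -0.18 and 0.19 and is negative on the 3 arrays with HM-1 in Cy3. The median over all features, not drawn, is also negative there, at -0.0165 to -0.0135.

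The medians of 2 lists of markers of other cell types were positive on nocodazole replicate 1 alone. The members' median ran from -0.03 to 0.15 on the nocodazole arrays and from -0.18 to 0.19 on the untreated ones. The median of 8 endoderm markers was 0.72 on nocodazole replicate 1 and between -0.83 and -0.72 on the other nocodazole arrays, against -0.94 to -0.42 on the untreated arrays. The median of 8 feeder fibroblast markers was 0.37 on nocodazole replicate 1 and between -0.35 and -0.26 on the other nocodazole arrays, against -0.34 to -0.09 on the untreated ones. On nocodazole replicate 1 the glycolytic median was 0.15, with 4 of 6 members positive. Without that array the nocodazole median over the members was 0.0034. The part of other cell types in the members' ratios was not tested.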

How the data were processed

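Total RNA of both lines was reverse transcribed and labelled indirectly with Cy3 or Cy5, per the labels' protocols. The deposited table holds 1 log2 ratio per probe and array. How the authors corrected and normalized the spots is not given in the sources used here, and which line is the numerator stays unknown. The protocols also mention organs and control animals, which the channel labels do not match. By the labels the dyes were swapped on 37.5% of the arrays, where the design text gives 50%. Each array carries 1 added offset, and a ratio with a denominator of 0 is coded as 100000, with a sign in log2 that follows the dye label of HM-1 on every array. Between 74 and 203 such values per array were set to missing. The brightness of spots is unknown, and the number of arrays limits the precision.

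Symbols came from the platform annotation, where 14030 probes carry a single symbol, 5 carry more and 6320 carry no symbol. Of the first, 13994 matched the RefSeq gene table (GRCm38.p6) by gene ID. Arrays were centred on their median, and probes of 1 symbol were averaged. Of 16255 features, the 14015 with values on at least 3 arrays of each group were tested. All 6 members with a probe had a value on all 8 arrays. limma (version 3.58.1, R 4.3.3) was fitted over all 8 arrays with a coefficient per group and a term for the HM-1 dye label. Two-sided p-values were corrected over all features by the Benjamini-Hochberg method, with a threshold of 0.05. The fit was run on simulated data with independent normal noise and no dye effect, as a check of the code. That run is not used here to say how small a difference could be found. Members, lists and the naming rule were chosen with earlier results of these data known. The rule named every member, the 3 genes of smallest p per comparison among the other lists, and the 5 genes most like the members' mean. Same-numbered arrays of the 2 conditions had correlations of their deviations between -0.05 and 0.13, and arrays of unlike number between -0.13 and 0.14. The deviations also carry the dye label, so these values cannot show whether same-numbered arrays share cultures. The main fit left the arrays unpaired. Alternatives covered the sign, dye term, coded and dim values, centring, scaling, probes, filters, weights, a replicate block and each array left out.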

Additional observations from a re-analysis of the deposited data

Results flagged for a closer look

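Dixon's ratio picked out single arrays that stood far from the rest of their group. This held for 12 of 72 groups of values, where chance gives about 1 in 20, or 3.6 groups. Several share probes or arrays.

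Among the members, Tpi1 was at -1.25 on nocodazole replicate 3, against -0.056 to 0.16 on the other nocodazole arrays, and its probe 1338 at -2.21 there. Pkm was at 0.54 on nocodazole replicate 1, against -0.016 to 0.055. On the same array probe 4656 of Aldoa was at 0.14, against -0.013 to 0.008, and probe 15483 of Pfkl at 0.29, against -0.086 to -0.044. Probe 10183 of Pfkl was at 0.026 on untreated replicate 1, against -0.11 to -0.088.

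Among the other genes and lists, Phgdh was at 1.03 and Mxd4 at 0.79 on nocodazole replicate 4, the nocodazole array with HM-1 in Cy3. The citrate cycle median was -0.11 on untreated replicate 2, and the median of Myc and its partners -0.0015 on untreated replicate 4. The feeder fibroblast median was 0.37 and the endoderm median 0.72 on nocodazole replicate 1.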

How the results depend on the processing

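No member passed the threshold under any of 23 alternatives, and the members' median moved by less than its spread between arrays under each in which it was recomputed. Across alternatives the smallest adjusted p of a member was 0.864 with nocodazole, 0.433 untreated, 0.938 for the change and 0.315 for the dye term. Members' values, none of them past the threshold, changed sign in 10 of 132 cases with nocodazole, 11 of 132 untreated, 21 of 132 for the change and 15 of 126 for the dye term. Over all features the ratio with nocodazole had 1 past the threshold, an unnamed probe, when values on all arrays were required, and 1 with only probes measured on all arrays, which was chosen after the data were seen. The dye term had 1, Nme2, with array weights. With single arrays left out the counts were 0 to 1 for the change, an unnamed probe, and 0 to 2 for the dye term, that probe and Nme2, all without untreated replicate 1. With the replicate block the counts were 0 in all 4 comparisons, with 578, 984, 517 and 1859 features at an unadjusted p under 0.05 for nocodazole, untreated, change and dye term. That fit tested 12840 features, against 14015 without the block, so these counts are not set against each other. The median ratio over the members was 0.04 with nocodazole and -0.0054 untreated, and 0.05 with nocodazole and 0.12 untreated with the Cy3 arrays turned. With single arrays left out it ran from 0.0034 to 0.06 with nocodazole, lowest without nocodazole replicate 1, and from -0.07 to 0.05 untreated, where its sign depended on the array left out. With dim spots left out 4 of 6 members kept values on all arrays. The table gives no signal over background.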
